A study of Mus musculus with 39 samples.

Results

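The RNAs described here encode proteins of the extracellular matrix and the basement membrane, and they were followed across sucrose gradients of mouse liver. They are the collagen genes with symbols of the form Col1a2, the laminin chains Lama, Lamb and Lamc, and a list of named matrix genes (Fn1, Nid1, Nid2, Hspg2, Sparc, Fbln5, Bgn, Lum, Ecm1, Postn, Timp2, Timp3 and others), chosen by symbol, with earlier results of these data known. Of 13230 genes with a row in the tables of both gradients, 26 met this rule. A further 5 had a row for 1 gradient only (Col6a3 and Lamb3 in gradient 1, and Lamb2, Nid2 and Postn in gradient 2), and 7 named genes (Fbln1, Fbn1, Eln, Vcan, Lox, Timp1 and Mmp2) are not analysed here. The 39 libraries hold the RNA of single fractions from 2 gradients run as biological replicates, 17 fractions of gradient 1 (4 to 19 and 21) and 22 fractions of gradient 2 (3 to 24). Every library came from wild-type FVB female mouse liver, homogenized with beads in buffered sucrose without detergent, cleared of nuclei by a spin and sedimented through sucrose, and low fraction numbers are the light end. There was no treatment, the series' description names 2 mice, for gradients 1 and 2, the ages of the mice are not given in the sources used here, and whole liver was used, so the cell types of the tissue are mixed. Replication therefore rests on the 2 gradients, since no fraction was sequenced more than once.

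Matrix proteins are made on ribosomes docked at the endoplasmic reticulum (ER), because the start of the nascent chain carries a hydrophobic signal that directs it into the secretory pathway. Collagens and laminins then assemble into trimers inside the ER before export, and collagen chains are recognized by long runs of a triplet that opens with glycine. In liver, hepatocytes secrete plasma fibronectin, while stellate cells, portal fibroblasts and endothelial cells are known as sources of most collagens, laminins and small proteoglycans.

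The openings of the coding sequences are shown because they carry this signal and belong to RNAs that differed in position. Fn1, Bgn, Timp3 and Nid1 were highest toward the light end and Col15a1 toward the dense end. Col18a1 was highest toward the light end in gradient 1 and at the dense end in gradient 2. Each line holds the 75 coding bases from the start codon of the mouse transcript with the longest coding sequence (GENCODE release M21), with leucine codons in capitals.
Fn1: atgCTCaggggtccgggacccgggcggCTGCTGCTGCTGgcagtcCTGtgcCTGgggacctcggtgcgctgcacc
Bgn: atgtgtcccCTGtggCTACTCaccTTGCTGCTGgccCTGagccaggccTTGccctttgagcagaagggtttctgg
Timp3: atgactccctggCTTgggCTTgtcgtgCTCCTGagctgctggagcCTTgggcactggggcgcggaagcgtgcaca
Nid1: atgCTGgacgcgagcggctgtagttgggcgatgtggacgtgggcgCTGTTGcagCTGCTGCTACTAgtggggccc
Col18a1: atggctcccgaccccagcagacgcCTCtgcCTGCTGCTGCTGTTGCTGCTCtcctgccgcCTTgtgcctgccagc
Col15a1: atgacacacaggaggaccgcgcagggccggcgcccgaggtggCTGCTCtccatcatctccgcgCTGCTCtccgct
Among the 24 codons after the start, Fn1 has 7 leucine codons, Bgn 8, Timp3 5, Nid1 7, Col18a1 9 and Col15a1 4. Over the 26 matrix RNAs the median share of leucine codons in this stretch was 22.9% (range 4.17% to 37.5%), and 23 of the 26 exceeded the median of 8.33% over 11787 other genes of both tables. In the rest of the coding sequence the shares were 7.08% and 9.81%. The lowest share, 1 codon of 24, was that of Col13a1, which encodes a transmembrane collagen, and of the fibrillar collagen Col27a1. Long and short matrix RNAs had medians of 25% and 20.8% at the start.

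The collagen members share the triplet repeat, shown here from the start of the longest run of 4 of them, with each glycine codon (GGN) that opens a triplet in capitals.
Col3a1: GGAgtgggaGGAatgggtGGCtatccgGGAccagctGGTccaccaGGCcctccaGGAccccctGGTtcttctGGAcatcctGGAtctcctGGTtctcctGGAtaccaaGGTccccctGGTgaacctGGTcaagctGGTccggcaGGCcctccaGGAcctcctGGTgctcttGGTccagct
Col4a2: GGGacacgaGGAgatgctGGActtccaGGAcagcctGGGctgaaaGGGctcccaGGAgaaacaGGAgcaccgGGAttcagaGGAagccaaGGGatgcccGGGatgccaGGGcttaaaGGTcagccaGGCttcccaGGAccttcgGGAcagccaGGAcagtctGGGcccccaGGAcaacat
Col18a1: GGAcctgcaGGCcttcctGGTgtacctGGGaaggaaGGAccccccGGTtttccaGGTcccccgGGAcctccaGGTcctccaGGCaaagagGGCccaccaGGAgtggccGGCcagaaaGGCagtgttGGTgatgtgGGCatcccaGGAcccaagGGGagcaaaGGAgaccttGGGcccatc
Col15a1: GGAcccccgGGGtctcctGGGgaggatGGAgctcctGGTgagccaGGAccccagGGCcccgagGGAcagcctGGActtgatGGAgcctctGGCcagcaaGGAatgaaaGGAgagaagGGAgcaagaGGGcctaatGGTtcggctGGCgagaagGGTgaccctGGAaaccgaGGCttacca
The fibrillar collagen Col3a1 has the longest run, 344 triplets, and the network-forming Col4a2 has 66. Col18a1 and Col15a1, which encode the related basement membrane collagens XVIII and XV, each have 30, the shortest among the 13 collagens. No run exceeded 3 triplets in the other 13 matrix RNAs, and runs of at least 10 occur in 25 of the 11787 other genes (0.212%).

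Most matrix RNAs were most abundant at the light end of the gradients. The deposited unit is TPM, which is a share of the RNA within a fraction, corrected for transcript length and scaled to a fixed total. Fractions 4 to 7 are called the light zone, 10 to 13 the middle zone and 16 to 19 the dense zone, with 8 libraries each over the 2 gradients. The TPM of the 26 RNAs summed to between 427 and 703 in the light libraries (median 527), between 146 and 241 in the middle libraries (median 182), and between 141 and 213 in the dense libraries (median 175). In gradient 1, 21 of the 26 had their highest TPM in fractions 4 to 7, and in gradient 2 also 21, with 18 doing so in both. Among the 16 that averaged 1 TPM or more it held for 11 in gradient 1 and 13 in gradient 2, where it held for 42.1% of all 11813 genes at that level in gradient 1 and 37.9% of 11597 in gradient 2. No share over all genes was taken for the counts over the 26. The other 10 averaged under 1 TPM, and a gene is listed only if it exceeded 1 TPM in at least 1 fraction. Their highest fraction thus also gave them their row, and the counts over the 26 rest partly on that rule.

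**Figure D1:**
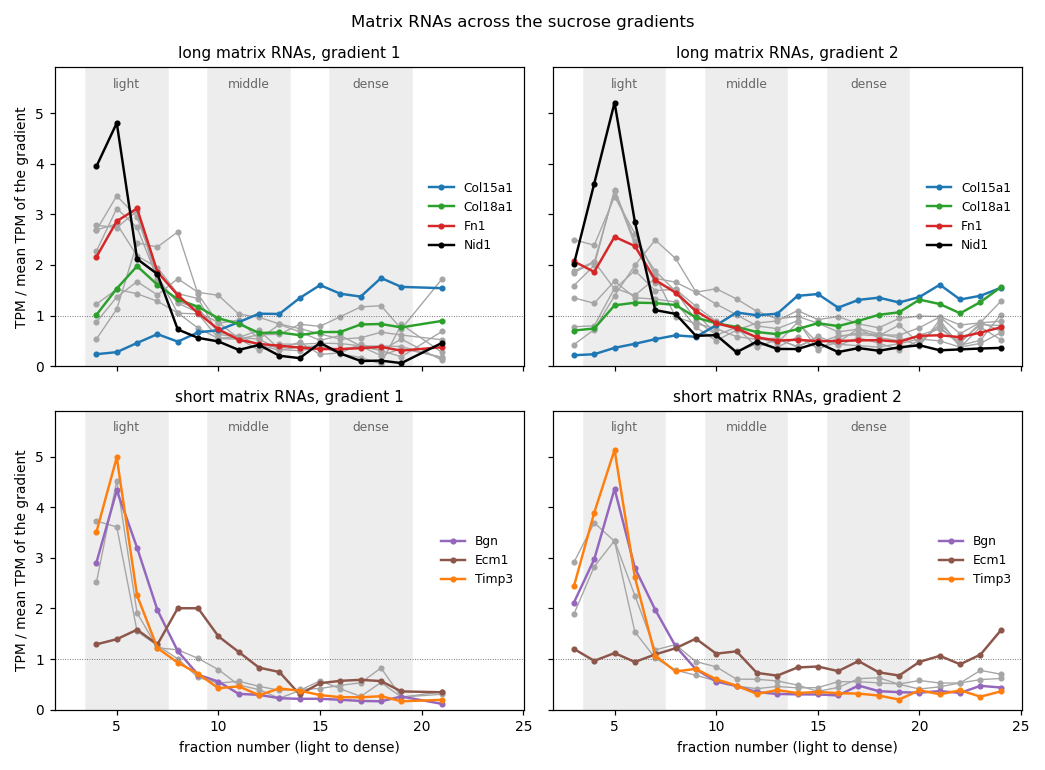
Matrix RNAs with a mean TPM of at least 1 across the fractions of gradient 1 (left) and gradient 2 (right), for long (top, 11 RNAs) and short (bottom, 5 RNAs) transcripts. The y axis is TPM divided by the gene's mean over the gradient, the x axis the fraction number, grey lines are further members and shading marks the zones; most lines peak at fractions 4 to 7, while Col15a1 rises toward the dense end.

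Fibronectin (Fn1), the cell-adhesive glycoprotein of plasma and matrix, is encoded on the minus strand of chromosome 1 (71585520 to 71653200, GRCm38, the same assembly as mm10) in 46 exons, with a transcript of 8315 nt. In gradient 1, Fn1 had 226, 301, 327 and 196 TPM in fractions 4 to 7, and 35.4, 37.3, 39.9 and 32.2 TPM in fractions 16 to 19. In gradient 2 these values were 190, 261, 242 and 174 TPM and 50.8, 52.0, 52.5 and 49.2 TPM. Every light library lay above every middle and dense library. Between the light and dense zones Fn1 fell by 2.42 on the log2(TPM + 1) scale (SE 0.23, adjusted p = 0.000627, limma with Benjamini-Hochberg adjustment over 11754 genes, n = 2 gradients per zone), and the change was −2.80 in gradient 1 and −2.04 in gradient 2. The median change over all genes was −0.43, so that Fn1 fell by 1.99 more than the median gene. After quantile normalization of the libraries the median over all genes was −0.05 and the change of Fn1 was −2.63. Between the gradients the Fn1 profiles over the 17 shared fraction numbers had a Pearson's R of 0.993.

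Fn1 is also the target of the study's FISH oligos for a secreted protein, whose targets show which stretch of the RNA they cover. The 38 oligos, listed by the study under the name Fbn1, share a 3′ end of 28 bases, and the remaining 26 to 32 bases of each match, as reverse complement and without mismatch, transcripts of Fn1 and of no other gene among 141767 GENCODE M21 transcripts. No oligo matched Fbn1. The transcript used for the length holds 37 of the targets, all coding and lying between bases 464 and 7534, and 12 of them cross an exon border. The targets that follow, in sense orientation, are 4 of those within 1 exon and of at most 30 bases, taken from the start to the end of the coding sequence.
oligo 37: aagtgggtgacacttatgagcgccctaaa
oligo 27: gctcccgggcagaaagtacattgtcaatg
oligo 21: ggaagcaagtccacagccaccatcaacaa
oligo 12: ggccacacctacaaccagtatacacagaga
They lie on chromosome 1 of GRCm38, in exon 3 (71650629 to 71650657), exon 16 (71628468 to 71628496), exon 30 (71606804 to 71606832) and exon 45 (71586851 to 71586880).

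The smaller matrix glycoproteins and proteoglycans differed widely in the size of their change. Biglycan (Bgn), a small leucine-rich proteoglycan that binds collagen, had 77.7, 116, 85.6 and 52.7 TPM in the light fractions of gradient 1 and 63.3, 92.9, 59.6 and 42.0 TPM in those of gradient 2, against 4.47 to 10.2 TPM in the 8 dense libraries. It fell by 3.27 (SE 0.24, adjusted p = 0.000353), the largest fall among the members on this scale, though the ratio of the zone means was larger for Nid1 and Timp3 (14.6 and 12.0, against 11.2 for Bgn). Sparc, a collagen-binding glycoprotein with the shortest transcript of the set (1366 nt), had 10.1 to 36.6 TPM in the light libraries (median 24.1) and 2.28 to 7.57 TPM in the dense libraries (median 5.15), without overlap. Its change was −1.90 (SE 0.19, adjusted p = 0.000728). Extracellular matrix protein 1 (Ecm1) was flatter, with 11.4 to 16.7 TPM in the light libraries (median 13.5) and 3.82 to 11.6 TPM in the dense libraries (median 7.18). The highest dense library of Ecm1 exceeded the lowest light one, and its change of −0.82 (SE 0.28, adjusted p = 0.0436) was made up of −1.28 in gradient 1 and −0.37 in gradient 2. In the middle zone Ecm1 was at 7.86 to 15.3 TPM, and the change from the light zone, −0.31 (SE 0.28), was not called (adjusted p = 0.40). The dense against light call of Ecm1 was lost after quantile normalization (−0.44, adjusted p = 0.227) and without any single zone value except that of gradient 2 in the dense zone (−0.48 without gradient 1 in the dense zone, adjusted p = 0.144). Lumican (Lum), a keratan sulfate proteoglycan, was too low for the filter of a mean TPM of 1, with 0.63 to 2.70 TPM in the light libraries and 0 to 0.71 TPM in the dense libraries.

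The inhibitors of matrix metalloproteinases moved in the same direction. Timp3, the inhibitor that stays bound to the matrix, had 15.3, 21.8, 9.87 and 5.33 TPM in the light fractions of gradient 1 and 20.2, 26.6, 13.6 and 5.55 TPM in those of gradient 2, while the dense libraries held 0.73 to 1.69 TPM. The fall was 2.65 (SE 0.23, adjusted p = 0.000479), with −2.66 in gradient 1 and −2.65 in gradient 2. Timp2 had 4.07 to 17.3 TPM in the light libraries (median 8.70) and 0.95 to 2.18 TPM in the dense libraries (median 1.66), a change of −1.83 (SE 0.22, adjusted p = 0.00112). The Timp3 gene lies within Syn3, which runs on the opposite strand, and Timp2 overlaps Cep295nl on the same strand, so assignment of reads at those loci is less certain for Timp2.

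The laminin chain Lamc1 and the linker proteins of the basement membrane were light as well, perlecan less clearly so. Lamc1, the gamma chain shared by most laminins, had 3.42 to 7.52 TPM in the light libraries (median 4.99) and 0.58 to 1.08 TPM in the dense libraries (median 0.95), and fell by 1.68 (SE 0.21, adjusted p = 0.00132). Lama4 and Lamb1, an alpha and a beta chain, were below the filter with light means of 1.33 ± 0.54 and 0.99 ± 0.26 TPM (SD, n = 2 gradients) and dense means of 0.46 ± 0.09 and 0.18 ± 0.06 TPM. Nidogen 1 (Nid1), which links laminin to type IV collagen, had 6.54, 7.96, 3.51 and 3.01 TPM in the light fractions of gradient 1 and 4.74, 6.84, 3.74 and 1.45 TPM in those of gradient 2, and 0.10 to 0.49 TPM in the dense libraries. It fell by 2.02 (SE 0.20, adjusted p = 0.000688). Its zone means below 1 TPM make the log2(TPM + 1) change smaller than the ratio of the means, 14.6. Perlecan (Hspg2), a heparan sulfate proteoglycan with the longest transcript (14176 nt), spread further into the gradient. Hspg2 had 1.71 to 5.74 TPM in the light libraries, 2.01 to 4.81 TPM in the middle libraries and 1.08 to 2.30 TPM in the dense libraries, and the ranges overlapped. The change of Hspg2 from the light to the middle zone was −0.18 (SE 0.28, adjusted p = 0.618), and from the light to the dense zone −0.79 (SE 0.28, adjusted p = 0.0491), a call lost after quantile normalization (−0.12, adjusted p = 0.657) and without any 1 of the 6 zone values (−1.04 to −0.54, adjusted p = 0.0525 to 0.205). With the gradient as a block Hspg2 also fell from the middle to the dense zone (−0.61, SE 0.13, adjusted p = 0.0125).

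**Figure D2:**
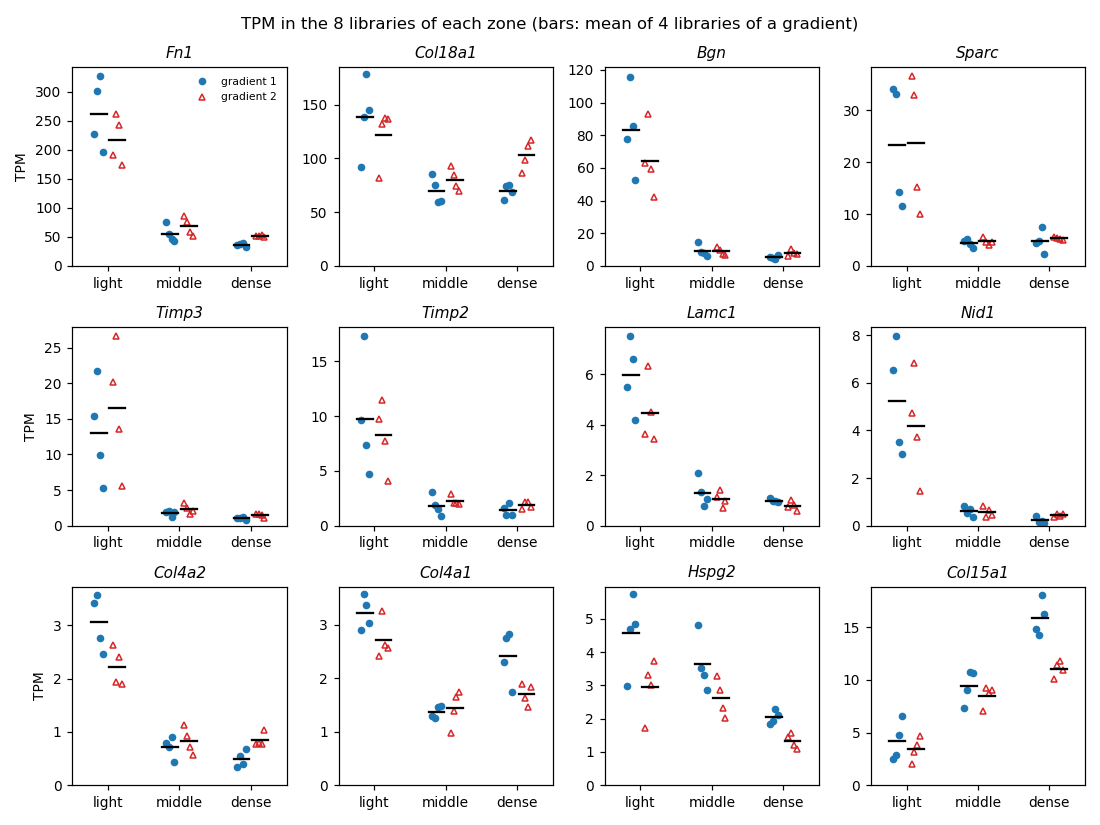
TPM of 12 matrix RNAs in the light, middle and dense zones, with a symbol for each library (filled circles gradient 1, open triangles gradient 2), black bars for the mean of the 4 libraries of a gradient, and y axes that start at 0. Fn1 lies at 174 to 327 TPM in the light zone and 32.2 to 52.5 TPM in the dense zone, and Col15a1 shows the opposite order with 2.05 to 6.56 and 10.1 to 18.1 TPM.

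The collagens did not form a single group. Of the fibrillar collagens, which build striated fibers, Col3a1 had 2.25 to 5.49 TPM in the light libraries and 0.06 to 1.18 TPM in the dense libraries, and fell by 1.47 (SE 0.22, adjusted p = 0.00258). Col27a1 changed by −0.88 (SE 0.24, adjusted p = 0.0223) and was highest at fraction 8 in gradient 1 and fraction 7 in gradient 2, and its light and dense ranges overlapped. From the light to the middle zone its change of −0.50 was called only with the gradient as a block (adjusted p = 0.140 without and 0.0251 with the block). After quantile normalization its dense against light change was −0.16 (adjusted p = 0.618), and that call was also lost without gradient 2 in the light zone (adjusted p = 0.0891) or gradient 1 in the dense zone (adjusted p = 0.104). Col1a2 and Col5a1 were under the filter, at light means of 1.03 ± 0.11 and 1.58 ± 0.22 TPM (SD, n = 2) and dense means of 0.33 ± 0.10 and 0.44 ± 0.003 TPM. Of the other collagens, Col14a1, which attaches to the surface of collagen fibrils, had 7.04 to 15.0 TPM in the light libraries and 0.81 to 1.99 TPM in the dense libraries. It fell by 2.21 (SE 0.23, adjusted p = 0.00078). The chains of beaded-filament collagen VI, Col6a1 and Col6a2, were low in every zone, with light means of 0.85 ± 0.02 and 0.52 ± 0.05 TPM and dense means of 0.13 ± 0.09 and 0.17 ± 0.02 TPM.

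The basement membrane collagens held the exceptions. The paired chains of type IV collagen, Col4a1 and Col4a2, lie head to head on chromosome 8 (11198423 to 11312826 on the minus strand and 11312805 to 11449287 on the plus strand, GRCm38). Col4a2 had 1.90 to 3.57 TPM in the light libraries and 0.33 to 1.03 TPM in the dense libraries and fell by 1.12 (SE 0.21, adjusted p = 0.00582), but was not called after quantile normalization (−0.43, adjusted p = 0.103). Col4a1 had 2.41 to 3.59 TPM in the light libraries, 0.98 to 1.74 TPM in the middle libraries and 1.47 to 2.82 TPM in the dense libraries, so that the middle libraries were all below the light ones while the dense libraries overlapped both. Its change from the light to the middle zone was −0.72 (SE 0.21, adjusted p = 0.0324), a call lost without any 1 of the 4 values of those zones (−0.81 to −0.63, adjusted p = 0.0664 to 0.150) and after quantile normalization (−0.33, adjusted p = 0.166). From the light to the dense zone Col4a1 was not called (−0.39, SE 0.21, adjusted p = 0.150, and 0.0603 with the gradient as a block), and the sign turned after quantile normalization (0.29, adjusted p = 0.200). An antisense gene, Gm15418, overlaps the end of Col4a1.

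Col18a1, which encodes the precursor of endostatin and is expressed by hepatocytes, was the second most abundant member. It had 91.7, 139, 179 and 145 TPM in the light fractions of gradient 1 and 81.7, 132, 138 and 137 TPM in those of gradient 2. In the dense fractions it had 61.2, 74.5, 75.3 and 69.3 TPM in gradient 1 and 86.9, 98.3, 111 and 117 TPM in gradient 2, which overlapped the light range. Dense against light, the change was −0.94 in gradient 1 and −0.22 in gradient 2, and the mean of −0.58 (SE 0.23) was not called (adjusted p = 0.0690), though it was with the gradient as a block (adjusted p = 0.0326), after quantile normalization (−0.72, adjusted p = 0.0478), with zones narrowed to their inner fractions (−0.71, adjusted p = 0.0347) and without gradient 2 in the dense zone (−0.85, adjusted p = 0.0174). The middle zone was lower than the light zone by a change of −0.76 (SE 0.23, adjusted p = 0.0368), and without any 1 of the 4 values of those zones the change was −0.86 to −0.66 and was no longer called (adjusted p = 0.0822 to 0.169). In fractions 20 to 24 of gradient 2 Col18a1 had between 115 TPM (fraction 22) and 171 TPM (fraction 24), the highest of that gradient. Col18a1 made up 23.5% of the summed TPM of the 26 RNAs in the light zone and 48.9% in the dense zone, while the share of Fn1 went from 43.2% to 24.6%. Slc19a1 overlaps Col18a1 on the opposite strand.

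Col15a1 had the reverse profile. The gene lies on the plus strand of chromosome 4 (47208161 to 47313167, GRCm38) with 40 exons and a transcript of 5172 nt. Its TPM was 2.45, 2.87, 4.76 and 6.56 in the light fractions of gradient 1 and 2.05, 3.16, 3.85 and 4.64 in those of gradient 2. In the dense fractions it was 14.8, 14.3, 18.1 and 16.3 in gradient 1 and 10.1, 11.4, 11.8 and 11.0 in gradient 2. Every dense library was above every light library, and every middle library, at 7.05 to 10.8 TPM, was too. Col15a1 rose by 1.63 from the light to the dense zone (SE 0.24, adjusted p = 0.00229), which is 2.05 above the median change of all genes. From the light to the middle zone it rose by 1.11 (SE 0.24, adjusted p = 0.0132), and by 1.013 to 1.199 without any 1 of the 4 values of those zones, where the call was lost (adjusted p = 0.0532 to 0.0934). Dense against middle, its change of 0.52 (SE 0.24), was not called (adjusted p = 0.168) except with the gradient as a block (adjusted p = 0.0245) and after quantile normalization (0.85, adjusted p = 0.0258), where 10.3% of all genes were higher. Its highest fraction was 18 in gradient 1 and 21 in gradient 2. Over the 17 shared fractions its profile had an R of −0.820 with that of Fn1 in gradient 1 and −0.867 in gradient 2, and its profiles in the 2 gradients had an R of 0.953. Neighboring fractions are not independent, so these values are descriptions. At the start of the gene a 299-base stretch overlaps the antisense gene Gm12426.

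Across the members, the counts ran as follows. Of the 26 RNAs, 16 passed the filter of a mean TPM of at least 1 over the 24 zone libraries, and of these 13 were lower in the dense than in the light zone, 1 (Col15a1) was higher, and 2 (Col4a1 and Col18a1) were not called. Over all 11754 genes tested, 39.6% were lower and 22.3% higher. After quantile normalization 10 of the 16 were lower and 1 higher, against 29.9% and 30.7% of all genes. From the light to the middle zone 12 were lower and 1 higher, against 24.1% and 23.5%. Between the dense and middle zones limma called none of the 16, where 22.5% of all genes were lower and 4.79% higher in the dense zone, and none of the 16 had an unadjusted p under 0.05. In none of the 16 were the dense libraries all below or all above the middle ones, as they were in 19.3% and 5.45% of all genes. With the gradient as a block 2 fell (Hspg2 and Timp3) and 1 rose (Col15a1), while the same fit called 39.3% of all genes lower and 14.1% higher. The filter matters for this count, because 4 of the 16 (Col3a1, Col4a2, Col27a1 and Nid1), all counted among the 13, averaged under 1 TPM over the middle and dense zones and passed through their light level. Lamc1 had a mean under 1 TPM in the dense zone only. The deposited tables also list a gene only if it exceeded 1 TPM in at least 1 fraction.

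Without the filter all 26 could be tested, and 22 were lower in the dense zone, 1 was higher and 3 (Col4a1, Col13a1 and Col18a1) were not called, against 42.2% lower and 20.1% higher among 13230 genes. The 10 RNAs that this adds (Col13a1, Col1a2, Col20a1, Col5a1, Col6a1, Col6a2, Fbln5, Lama4, Lamb1 and Lum) had light means of 0.524 to 1.58 TPM and dense means of 0.127 to 0.492 TPM, and all 10 had lower dense than light means in both gradients. Their changes lay between −0.35 for Col6a2 and −0.87 for Lum, and those of Col6a2, Col13a1 and Fbln5 lay 0.14, 0.04 and 0.01 above the median of the 13230 genes. Apart from Col13a1 in gradient 2, these 10 exceeded the 1 TPM needed for a row mainly in the light zone or next to it. Their order of light over dense, and the counts over all 26, therefore rest partly on that rule. In 14 of the 26 every dense library lay below every light library, and in 1 every dense library lay above, where 28.1% and 15.1% of the 13230 genes did so. Among the 16 tested these counts were 10 and 1, against 28.9% and 16.9%. In the RNAs with a row for 1 gradient only the highest TPM was 1.24 at fraction 5 for Col6a3, 1.15 at fraction 8 for Lamb3, 1.02 at fraction 5 for Lamb2, 1.55 at fraction 7 for Nid2 and 1.44 at fraction 3 for Postn.

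Long matrix RNAs were compared with short ones to ask whether the size of the transcript orders the members along the gradient. Of the 26, 15 had a transcript of at least 5000 nt (Col15a1, 5172 nt, to Hspg2, 14176 nt) and 11 were shorter (Sparc, 1366 nt, to Timp3, 4722 nt). Of the 11 long RNAs that passed the filter 8 were lower in the dense zone and 1 higher, and of the 5 short RNAs all 5 were lower. The 4 RNAs that passed the filter through their light level (Col3a1, Col4a2, Col27a1 and Nid1) are all long and are among the 8. The median dense against light change was −1.12 for the long and −1.90 for the short RNAs. The long median was thus less negative by 0.61 in gradient 1, by 0.99 in gradient 2 and by 0.77 over both. This difference rests on few RNAs and on the filter, since over all 26 the medians were −0.822 for the long and −0.823 for the short RNAs. With long RNAs counted from 6000 nt the difference was 0.25, and by the median length of a gene's coding transcripts it was 0.005. Over all genes tested the order was the opposite, with a median change of −0.66 for 1927 long and −0.25 for 8896 short RNAs, and 47.7% of the long and 35.7% of the short RNAs were lower. With 2 gradients no exact permutation test between gradients can reach 0.05, so the difference between the length classes is given without a test.

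The center of sedimentation, the mean fraction number weighted by TPM over the 17 shared fractions, places each RNA on the gradient by 1 number. In gradient 1 the median center was 8.32 for the 11 long matrix RNAs (range 7.04 to 14.4) and 8.13 for the 5 short ones (range 7.06 to 9.83). In gradient 2 it was 10.1 (range 7.53 to 14.1) and 8.68 (range 7.35 to 11.5). The long and short ranges overlapped in both gradients, with Col15a1 at the dense end of the long ones. The 4 long RNAs that passed the filter through their light level are among these 11. The median over all genes was 11.3 in each gradient, and 14 of the 16 matrix RNAs were lighter than it in gradient 1 and 12 of 16 in gradient 2. Among all genes, long RNAs were slightly lighter than short ones (11.1 and 11.5 in gradient 1, 10.9 and 11.5 in gradient 2). Across the 16 matrix RNAs the Spearman's rho between length and center was 0.194 in gradient 1 and 0.215 in gradient 2, and across all genes with a length it was −0.121 and −0.159. These correlations are across genes of the same libraries and are descriptions.

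A few members, chosen after their values were seen, can be set side by side by length. Nid1 (6091 nt) had the lowest center of the long RNAs, 7.04 in gradient 1 and 7.53 in gradient 2, close to those of Timp3 (4722 nt), 7.24 and 7.35, and Bgn (2419 nt), 7.06 and 7.81. Col15a1 (5172 nt) and Col3a1 (5564 nt) are close in length, and their centers were 14.4 and 8.12 in gradient 1 and 14.1 and 9.25 in gradient 2. Fn1 (8315 nt) had centers of 8.30 and 9.26, and Sparc (1366 nt) had 8.39 and 8.68. Ecm1 (1900 nt) had 9.83 and 11.5.

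**Figure D3:**
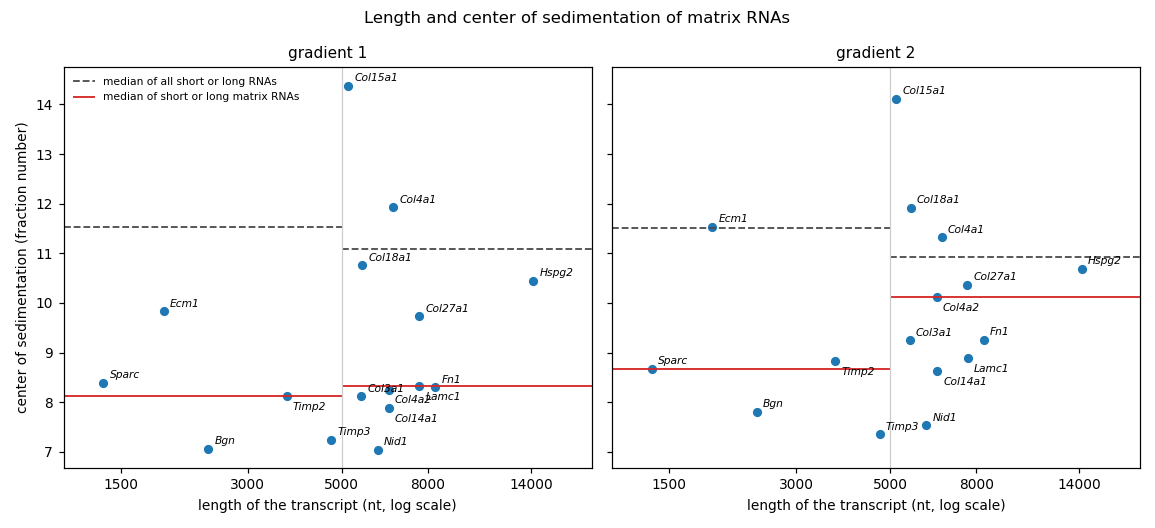
Transcript length (x axis, nt, log scale) against the center of sedimentation (y axis, fraction number) of the matrix RNAs with a mean TPM of at least 1, for each gradient. Red lines are the medians of the short and long matrix RNAs (8.13 and 8.32 in gradient 1, 8.68 and 10.1 in gradient 2) and dashed lines those of all genes of the same length class, and Col15a1 lies highest in both.

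The profiles of the members resembled each other more than those of gene pairs at large. Over the 17 shared fractions the median Pearson's R of the 120 pairs of the 16 members was 0.656 in gradient 1 and 0.639 in gradient 2, and over all pairs of 11371 genes it was 0.066 and 0.084. The 16 include 4 that passed the filter through their light level, and how far this selection adds to the likeness was not tested. The 5 short members were mostly alike among themselves (median R 0.912 and 0.928), long members less so (0.629 and 0.598), and long with short members had 0.696 and 0.718. Ecm1 stood apart from the other short members, with an R of 0.539 and 0.334 with Bgn. Bgn (2419 nt) and Col14a1 (6457 nt) had an R of 0.991 in both gradients, and Fn1 and Lamc1 had 0.987 and 0.977. Of the 26 RNAs, 14 had an R over 0.9 between their own profiles in the 2 gradients, and the median was 0.911. The mean profile of the long members peaked at fraction 5 in both gradients, at 2.32 and 2.34 times the mean, and that of the short members also at fraction 5, at 3.77 and 3.46 times the mean.

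Among genes outside the set that averaged 10 TPM or more in each gradient, those whose profiles in gradient 2 were most like the mean profile of the long members included Abca1, Agpat3, Egfr and Itih1, with an R of 0.982 to 0.985 over 22 fractions and of 0.967 to 0.998 over 17 fractions in gradient 1. Most like the mean profile of the short members were 2900097C17Rik, Man2a1, Ugcg, Olfr856-ps1 and Aqp1, with an R of 0.990 to 0.994 in gradient 2 and of 0.959 to 0.995 in gradient 1. Egfr encodes a receptor of the cell surface, Abca1 a lipid transporter, Itih1 a secreted chain that binds hyaluronan, Man2a1 and Ugcg enzymes of the Golgi and Aqp1 a water channel.

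RNAs for other steps of matrix biology were read from lists of genes that are not members, to be set beside the 39.6% of all genes lower and 22.3% higher in the dense zone. Of 11 tested RNAs for folding and modification of collagen in the ER, 10 were lower in the dense zone and none higher. Serpinh1, counted among the 10, averaged under 1 TPM over the middle and dense zones and passed the filter through its light level. P4hb, the disulfide isomerase that is also a subunit of prolyl hydroxylase, went from 548 and 513 TPM in the light zones of the 2 gradients to 50.2 and 119 TPM in the dense zones (−2.73, SE 0.44, adjusted p = 0.00324), and the chaperone Hspa5 fell by 1.87 (adjusted p = 0.00892). Ppib, a cyclophilin of the ER, was not called (−0.82, SE 0.49, adjusted p = 0.187). Of 15 receptors for matrix 12 were lower and none higher, among them the heparan sulfate proteoglycans Sdc2 (−1.59, adjusted p = 0.00276) and Sdc1 (−1.48, adjusted p = 0.0199). Itga3, Itga4 and Cd44, counted among the 12, averaged under 1 TPM over the middle and dense zones and passed the filter through their light level. The syndecan Sdc4, the most abundant of the receptors, was not called (−2.05, SE 0.81, adjusted p = 0.0698). Of 8 further matrix proteins 5 were lower, of 6 further proteases and inhibitors 5, and of 4 enzymes that mature the matrix outside the cell 3, with Tgm2, transglutaminase 2, higher (1.01, SE 0.22, adjusted p = 0.0101). Among the lower ones, the matrix proteins Agrn and Ltbp4, the protease Adamts1 and the maturation factor Pcolce2 likewise passed the filter through their light level. After quantile normalization the counts of lower RNAs were 6 of 11 for folding, 10 of 15 with 1 higher for receptors, 2 of 8 with 1 higher for matrix proteins, 4 of 6 for proteases and inhibitors, and 1 of 4 with 1 higher for maturation, against 29.9% of all genes lower and 30.7% higher, so the shares for matrix proteins and maturation were near that background. Each median kept its sign.

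The machinery that exports large cargo from the ER, whose proteins work on the cytosolic face of the membrane or within it, had a median change of 0.45, with 5 of 12 RNAs higher and 2 lower in the dense zone, against 22.3% and 39.6% of all genes. The list also holds Tango2, which is not the cargo receptor of similar name (Mia3), and without it, a choice made after seeing the data, the median was 0.29 with 5 of 11 higher and 2 lower. The coat subunit Sec13 went from 34.7 and 32.6 TPM to 310 and 265 TPM (3.10, SE 0.16, adjusted p = 0.000301), Sec31a rose by 1.72 (SE 0.27, adjusted p = 0.00295) and Sec24d by 2.26 (SE 0.45, adjusted p = 0.00714), while the lower ones, named after their values were seen, were the small GTPase Sar1a (−1.37, SE 0.29, adjusted p = 0.00847) and the cargo receptor Mia3 (−0.75, adjusted p = 0.0102). The related receptor Mia2 was not called (−0.55, SE 0.49, adjusted p = 0.359). Of 25 RNAs for long cytosolic and cytoskeletal proteins, a list that also holds the mitochondrial enzyme Cps1, 14 were higher and 3 (Dst, Macf1 and Sptbn1, which link or line the cytoskeleton) lower, with a median change of 0.83. The median center of these 25 was 13.1 in gradient 1 and 12.8 in gradient 2. Fasn, fatty acid synthase, with a transcript of 10050 nt, rose by 1.98 (SE 0.17, adjusted p = 0.000462), and Fn1, at 8315 nt, fell by 2.42. After quantile normalization 6 of the 12 export RNAs were higher and 2 lower, and 18 of the 25 long RNAs were higher and 2 lower, against 30.7% and 29.9% of all genes.

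**Figure D4:**
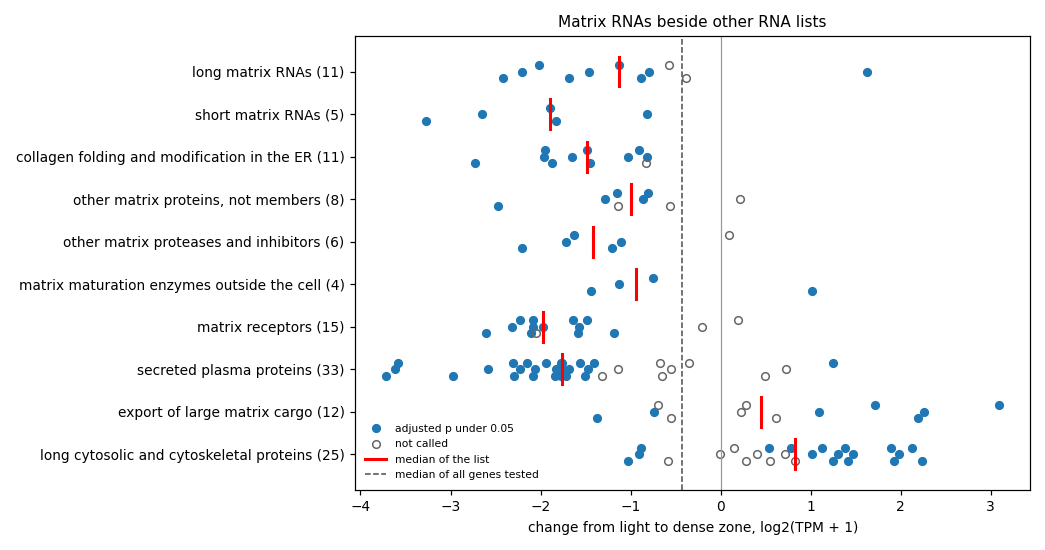
Dense against light change on the log2(TPM + 1) scale (x axis) for each tested RNA of the long and short matrix RNAs and of 8 further lists, with the number tested in parentheses, filled where the adjusted p was under 0.05. Red bars are the medians of the lists and the dashed line is the median of all genes tested, −0.43; long cytosolic and cytoskeletal RNAs have a median of 0.83. The 11 long matrix RNAs include 4 that passed the filter through their light level. The lists for folding, matrix receptors, other matrix proteins, proteases and inhibitors, and maturation also hold such RNAs.

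Secreted plasma proteins, made by hepatocytes, had 24 of 33 RNAs lower and 1 higher (25 and 1 after quantile normalization), against 39.6% and 22.3% of all genes (29.9% and 30.7%), with a median change of −1.76. The higher RNA was that of Apoa2, the apolipoprotein with a transcript of 518 nt (1.25, SE 0.40, adjusted p = 0.0378).

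Markers of the cell types of liver were read in the same way, beside 39.6% of all genes lower in the dense zone. Of 8 markers of stellate cells and fibroblasts 7 were lower in the dense zone, with a summed TPM of 84.9 to 170 in the light libraries and 34.5 to 43.4 in the dense libraries. Pdgfrb, counted among the 7, averaged under 1 TPM over the middle and dense zones and passed the filter through its light level. Of 7 tested markers of sinusoidal endothelium 6 were lower (58.7 to 113 and 25.3 to 44.0 TPM), and of 8 of Kupffer cells 5 (149 to 202 and 62.4 to 89.2 TPM). Of 3 tested markers of cholangiocytes none was called, at 3.09 to 8.85 and 4.85 to 9.43 TPM, and 3 of 8 hepatocyte markers were lower and 3 higher, at 30457 to 61467 and 20146 to 42322 TPM. After quantile normalization 3 hepatocyte markers were lower and 3 higher, 6 stellate markers were lower and 1 higher, 4 sinusoidal and 4 Kupffer markers lower, and 3 cholangiocyte markers higher, against 29.9% of all genes lower and 30.7% higher. No list was absent from the libraries, and the part of cell type in the position of the matrix RNAs was not tested. In these bulk fractions fewer transcripts of an RNA in a fraction and more of the other RNAs cannot be told apart.

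At the bottom of gradient 2, which was sequenced to fraction 24, most matrix RNAs were somewhat above their dense level. The mean of fractions 20 to 24 was above that of the dense zone for 14 of the 16, with a median difference of 0.17 on the log2(TPM + 1) scale, where the median over all 11754 genes was −0.11 and 34.5% of them were above. Ecm1 went from a mean of 9.45 TPM in the dense zone to 13.4 TPM (10.8 to 18.9 TPM), Col18a1 from 103 to 141 TPM (115 to 171 TPM) and Fn1 from 51.1 to 65.6 TPM (58.5 to 78.4 TPM). Timp2 and Col3a1 were slightly lower, at 1.80 and 0.94 TPM. Gradient 1 did not show the same. In its fraction 21, the only one beyond the dense zone, 6 of the 16 were above their dense mean, near the 41.0% of all genes, and the median difference was −0.12 (−0.07 over all genes). Ecm1 had 3.64 TPM there against 3.82 to 6.23 TPM in fractions 16 to 19, Bgn 3.11 against 4.47 to 6.98 TPM, Lamc1 0.39 against 0.94 to 1.08 TPM, Col14a1 0.69 against 0.81 to 1.54 TPM, Col4a2 0.15 against 0.33 to 0.68 TPM and Hspg2 1.79 against 1.83 to 2.30 TPM. Above their dense ranges were Col18a1 (80.9 against 61.2 to 75.3 TPM), Col4a1 (4.07 against 1.74 to 2.82 TPM), Nid1 (0.76 against 0.10 to 0.41 TPM) and Col27a1 (0.86 against 0.23 to 0.76 TPM). No test was made.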

How the data were processed

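RNA was measured in 39 fractions of 2 gradients. The authors ran Kallisto on stranded, ribosomal RNA-depleted paired reads against an mm10 RefSeq index. The deposited values are TPM by gene symbol, for genes that passed 1 TPM in at least 1 fraction. The submitters' processing notes name bcl2fastq 2.16.0.10, and the version of Kallisto is not given in the sources used here. TPM holds no counts, so depth is unknown and no counting interval is given; totals ran from 998099 to 999202, with 10532 to 12558 genes above 1 TPM per library. As totals are fixed, a rise of abundant RNAs lowers the others.

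The members, lists and tests were chosen with earlier results of these data known. Mean log2(TPM + 1) per zone and gradient was compared with limma 3.58.1 (R 4.3.3, eBayes with trend, all 3 zones in the fit), keeping genes that averaged 1 TPM or more over 24 libraries, with Benjamini-Hochberg adjustment over 11754 genes and a threshold of 0.05. Fold changes on this scale understate the change of low genes. All zones of a gradient derive from 1 homogenate and are paired by it; deviations of the gradients correlated between zones (r = 0.540 to 0.798 across genes), and a fit with the gradient as a block was made too. Lengths and coordinates came from GENCODE M21 (GRCm38), from the transcript with the longest coding sequence; a length was found for 92.1% and 92.0% of the genes with a center. Named were Fn1, the 3 most abundant members of each class, the 5 largest rises and falls per contrast, and the 3 longest and 3 shortest members; non-members were named by profile or by abundance within a list, some outside this rule after their values were seen. A gene that the rule names by profile is not reported here. The number of value columns matched to no sample was 0. Python 3.11.15, NumPy 2.4.6, pandas 2.3.3 and SciPy 1.17.1 were used.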

Additional observations from a re-analysis of the deposited data

How the results depend on the processing

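With a mean TPM of at least 10, 5 members were left and 4 were called in each of the comparisons of the dense and of the middle with the light zone, and without a filter 23 and 21 of 26 were called; these fits called 66.3% and 54.8%, and 62.3% and 47.8%, of all genes. Between the dense and middle zones 1 member was called after quantile normalization and 3 with the gradient as a replicate block, against 0 without; the block raised the share of all genes called from 22.5% to 39.3% lower and from 4.79% to 14.1% higher. Leaving out 1 gradient in 1 zone, where the lone sample is assumed to vary like the others, gave 11 to 14 called members for dense against light, 9 to 13 for middle against light (Col15a1 was lost without any 1 of the light or middle zone values) and 0 to 0 for dense against middle, where 43.4% to 60.9%, 24.8% to 51.4% and 0% to 20.8% of all genes were called. The difference of the long and short median changes was 0.431 with a pseudocount of 0.1, 0.000642 without a filter, 0.399 with a mean TPM of at least 10 (2 long and 3 short RNAs), 0.245 with long RNAs from 6000 nt and 0.00518 by the median length of coding transcripts, and 0.623 to 0.880 without 1 gradient in 1 zone. The difference of the median centers was 0.195 and 1.43 without gradient 2 and without gradient 1. The causes were not tested. Signs turned for Col4a1, dense against light, after quantile normalization (0.292), and for Hspg2, middle against light, after quantile normalization (0.146) and without gradient 1 in the light zone (0.0698, and −0.43 to 0.0698 over the 6 values left out), none of them called. Of 535 values of single members under the alternatives, 483 kept direction and side of the threshold, 40 lost the call and 9 gained it; Ecm1 and Hspg2 lost it most often, under 10 and 9 settings. The block changed the calls of Col18a1 and Col27a1 and those between the dense and middle zones given in the text. Unknown depth and 2 gradients limit the precision of every value.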
